A study of Homo sapiens with 16 samples.

Results

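Homologous recombination and the Fanconi anaemia pathway repair broken and crosslinked DNA, and 39 genes of these pathways were followed here, chosen by name as rows of the deposited table, which holds 56969 genes. All 39 were found, each in 1 row, and all 39 passed the filter of a mean of at least 10 normalized counts. The cells were HepG2, an established human liver cancer line, in 2 groups of 8 cultures that the labels call biological replicates: cells transfected with HCF-1 siRNA and cells transfected with control siRNA, with no other allele or agent named. Transfection was done 2 times, 2 days apart, and RNA was taken 2 days after the second. HCF-1, encoded by HCFC1, is a chromatin-bound cofactor that transcription factors such as E2F1 recruit to promoters, and the comparison asks which genes changed when it was reduced. A knockdown by siRNA leaves part of the protein, and a pool of cells of 1 line stands for no other liver cell.

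In homologous recombination, a double-strand break is resected by nucleases to expose single-stranded DNA, and BRCA2 and the complexes built from RAD51B, RAD51C, RAD51D, XRCC2 and XRCC3 prepare that strand to pair with the intact sister sequence, which is then copied. The Fanconi core complex senses a crosslink and attaches ubiquitin to FANCD2 and FANCI, which brings nucleases and then recombination to the site. The kinases ATM and ATR report breaks and stalled forks to CHEK2 and CHEK1. Many of these genes are transcribed mainly in proliferating cells, around S phase.

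The targeted gene, HCFC1, had 3112, 3654 and 4171 normalized counts in the lowest, median and highest HCF-1 siRNA library, against 4851, 5548 and 6878 in the same order over the control siRNA libraries. No HCF-1 siRNA library reached the lowest control siRNA library, and the mean fell to 65.4% of the control siRNA mean. Its log2 fold change was -0.61 ± 0.071 (SE; adjusted p = 4.52e-06, limma). Reads recovered from the table were 25098840 to 43186890 in the HCF-1 siRNA libraries and 21030830 to 32820459 in the control siRNA libraries. The repair genes had at least 45 reads in every HCF-1 siRNA library and at least 37 in every control siRNA library. HepG2 defining genes such as ALB were high, and summed to 881070 to 1050736 normalized counts in HCF-1 siRNA libraries and 743385 to 810268 in control siRNA libraries. Of 6 endothelial markers, 5 were in the deposited table. KDR and TEK, and CD3E among 6 blood cell markers, were at 0 in every library. However, 2 endothelial, 4 blood cell and 4 mesenchymal markers averaged 10 or more. Endothelial markers summed to 94.6 to 158 normalized counts in HCF-1 siRNA libraries and 82.0 to 160 in control siRNA libraries. Blood cell markers summed to 1340 to 1549 and 1347 to 1623, and mesenchymal markers to 2543 to 3285 and 2562 to 3357, in the same groups. The endothelial, blood cell and mesenchymal sums overlapped between the groups, and the HepG2 sums did not. Of the tested markers, 8 of 10 HepG2 genes rose and 1 fell, beside 36.6% called of all genes tested. Of the others, 1 of 4 blood genes and 1 of 4 mesenchymal genes fell, and 0 of 2 endothelial genes passed. The part of these marker shifts in the repair genes' values was not tested.

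Most of the 39 repair genes did not pass the test after HCF-1 siRNA. In the fit over all genes, 5 rose and 2 fell, and 32 did not pass. Over all 16081 genes tested, 36.6% changed, 18.2% higher and 18.3% lower, so the 7 calls among 39 (17.9%) were a smaller share than that of the whole table. An unadjusted p under 0.05 was found for 9 of the 39, against 45.4% of all genes tested. FANCA, FANCL, XRCC2, MRE11A and CLSPN rose, and FANCF and EXO1 fell. The groups of values did not overlap for 1 of the 39, FANCA, against 9.82% of all genes tested. The median log2 fold change of the 39 was 0.077, beside 0.0064 for all genes tested, with 24 values above 0 and 15 below. Single log2 fold changes ran from -0.45 for RAD51B to 0.60 for MRE11A.

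The 95% interval of the fold change (printed on the log2 scale throughout) lay inside 1.5-fold in either direction for 31 of the 39 genes, against 61.4% of all genes tested. For those 31 a change of 1.5-fold or more lay outside the interval, also where the test was not passed. The other 8, whose intervals crossed that limit, were MRE11A, RAD51B, RAD51D, BRCA2, FANCB, ATM, ATR and ATRIP. Summed over the 39 genes, the libraries held 29191 to 33884 normalized counts after HCF-1 siRNA (mean 31629 ± 1893 SD, n = 8) and 27467 to 32091 after control siRNA (mean 29875 ± 1723 SD, n = 8), so the groups overlapped. In a bulk culture, a change in the share of cells in S phase and a change in RNA per cell cannot be told apart.

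**Figure D1:**
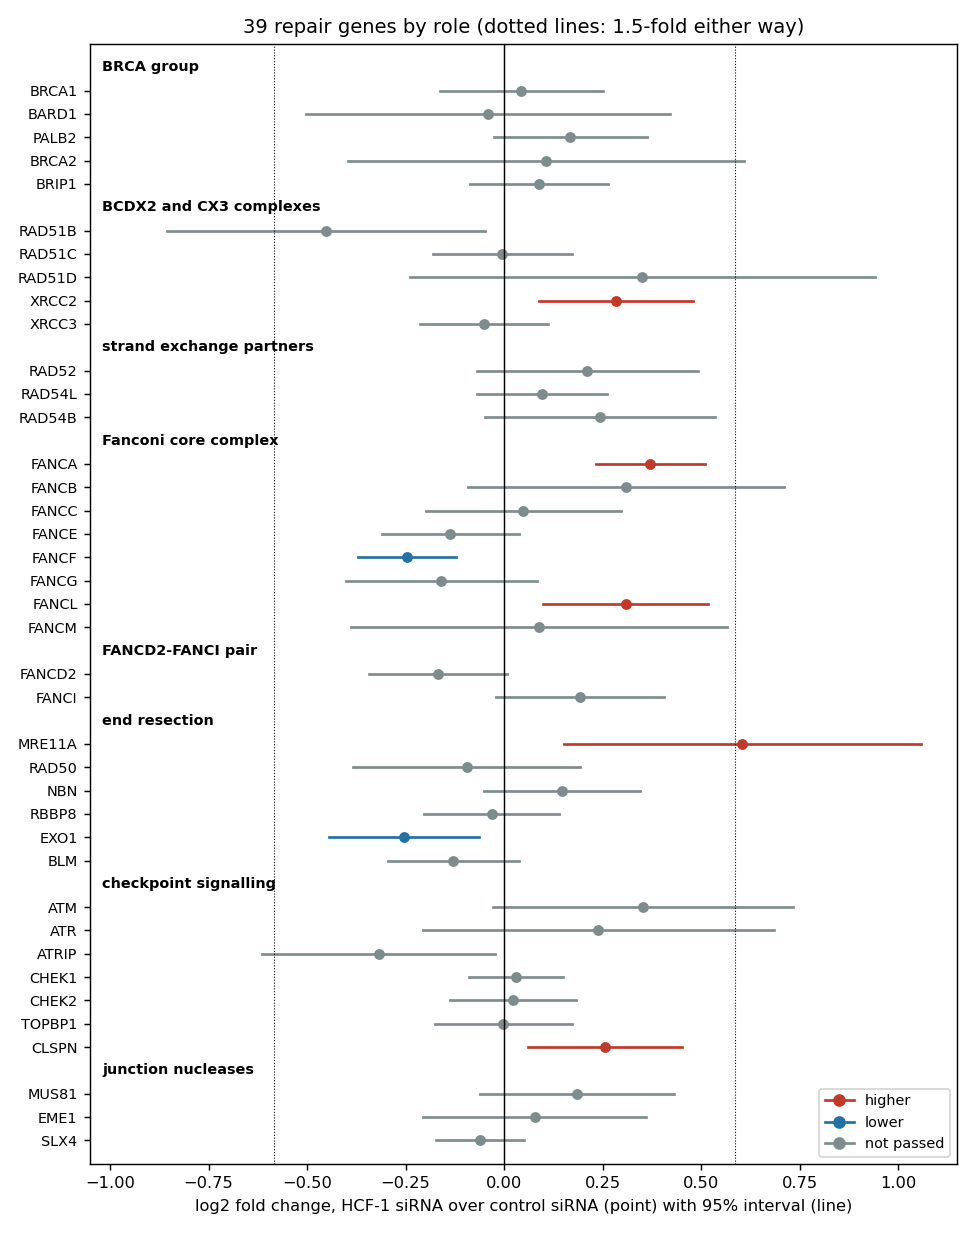
Log2 fold change of HCF-1 siRNA over control siRNA (horizontal axis) for the 39 genes, grouped by role, as a point with its 95% interval from limma (line), n = 8 libraries per group. Red marks genes called higher, blue genes called lower and grey those that did not pass. Most points lie near 0, and MRE11A has the highest point and a wide interval (0.15 to 1.06).

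The promoters of the genes were read for short motifs of factors known to work with HCF-1. RefSeq windows (GRCh38.p14) of 300 bases, from 250 before to 50 after the annotated gene start, were matched for 36 of the 39 genes. Each gene was read at 1 annotated start only. Where the main promoter lies at another start, it was not read, so a gene without a match may hold one there. An E2F motif (TTTCCCGC or TTTGGCGC, either strand) was present in 4 of 36, XRCC2, CLSPN, FANCC and FANCD2, and in 2.27% of all 35116 windows. XRCC2 and CLSPN were called higher, while FANCC and FANCD2 did not pass. Other spellings of the E2F motif were not searched, so the genes with a match depend on the letters chosen. The ETS motif of GABPA (CCGGAAGT, either strand) was in 6 of 36 windows, those of PALB2, BRCA2, FANCD2, MRE11A, RAD50 and EME1, and in 4.14% of all. Of these 6 genes MRE11A rose and the other 5 did not pass. A part of the ZNF143 and THAP11 motif (ACTACAA, either strand) was only in the window of CHEK2, and in 2.77% of all, and a YY1 motif (ATGGCGG, either strand) only in that of FANCL, and in 5.55% of all. CHEK2 did not pass, and FANCL rose. No searched motif of 1 factor overlapped that of another. The shares over all 35116 windows were not limited to genes tested here, so they are not a matched background. Enrichment was not tested. A match is a description of letters, and binding was not measured in these files.

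The windows of the 4 genes that rose and held a match are given with the matched letters in capitals, 5′ to 3′ on the gene's strand. Beside them stand that of FANCD2, which held both an E2F and an ETS match and did not pass, and those of FANCA and FANCF, which rose and fell in all 26 alternatives and held none of the 4 motifs. In XRCC2 the capitals are an E2F match at 21 bases after the gene start, in CLSPN an E2F match at -5, and in MRE11A an ETS match at -158. In FANCL they are the YY1 match at 12 bases after the start, and in FANCD2 an ETS match at -70 and an E2F match at -2. The E2F matches of XRCC2, CLSPN and FANCD2 are the same letters on the same strand.
XRCC2, chr7:152676092-152676391, minus strand: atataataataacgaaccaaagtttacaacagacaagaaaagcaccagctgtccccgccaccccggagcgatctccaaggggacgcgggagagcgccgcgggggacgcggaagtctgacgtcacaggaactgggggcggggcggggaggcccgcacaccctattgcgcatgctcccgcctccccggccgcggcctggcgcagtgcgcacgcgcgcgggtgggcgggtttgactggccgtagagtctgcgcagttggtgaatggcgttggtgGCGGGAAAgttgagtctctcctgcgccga
CLSPN, chr1:35769929-35770228, minus strand: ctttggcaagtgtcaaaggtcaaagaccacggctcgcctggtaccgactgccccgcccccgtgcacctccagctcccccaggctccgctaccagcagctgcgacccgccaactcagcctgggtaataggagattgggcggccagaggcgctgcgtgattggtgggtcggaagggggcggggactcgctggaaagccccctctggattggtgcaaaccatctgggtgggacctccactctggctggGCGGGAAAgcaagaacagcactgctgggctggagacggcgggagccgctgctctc
MRE11A, chr11:94493795-94494094, minus strand: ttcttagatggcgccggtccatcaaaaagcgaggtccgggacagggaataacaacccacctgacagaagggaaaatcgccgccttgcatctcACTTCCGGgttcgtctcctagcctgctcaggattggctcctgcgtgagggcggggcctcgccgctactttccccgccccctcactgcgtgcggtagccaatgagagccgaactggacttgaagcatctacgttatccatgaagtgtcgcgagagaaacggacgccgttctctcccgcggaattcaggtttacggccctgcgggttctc
FANCL, chr2:58241276-58241575, minus strand: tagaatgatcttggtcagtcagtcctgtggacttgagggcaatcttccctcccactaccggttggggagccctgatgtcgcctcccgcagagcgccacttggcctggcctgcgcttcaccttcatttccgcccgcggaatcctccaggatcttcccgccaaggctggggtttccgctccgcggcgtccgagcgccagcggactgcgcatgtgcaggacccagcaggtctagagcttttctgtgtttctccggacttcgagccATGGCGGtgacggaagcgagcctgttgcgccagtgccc
FANCD2, chr3:10026187-10026486, plus strand: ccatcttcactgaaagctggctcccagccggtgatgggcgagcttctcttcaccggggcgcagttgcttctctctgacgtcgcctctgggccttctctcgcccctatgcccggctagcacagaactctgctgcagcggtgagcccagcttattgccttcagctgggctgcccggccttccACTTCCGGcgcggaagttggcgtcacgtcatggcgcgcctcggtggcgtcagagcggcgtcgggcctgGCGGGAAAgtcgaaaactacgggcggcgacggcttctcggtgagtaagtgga
FANCA, chr16:89816598-89816897, minus strand: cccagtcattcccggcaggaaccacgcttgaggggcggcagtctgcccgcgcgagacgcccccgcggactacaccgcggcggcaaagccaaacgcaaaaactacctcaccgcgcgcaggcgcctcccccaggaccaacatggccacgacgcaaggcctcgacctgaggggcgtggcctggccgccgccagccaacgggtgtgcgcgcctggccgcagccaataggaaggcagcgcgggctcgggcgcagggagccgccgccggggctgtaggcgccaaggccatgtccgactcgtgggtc
FANCF, chr11:22625774-22626073, minus strand: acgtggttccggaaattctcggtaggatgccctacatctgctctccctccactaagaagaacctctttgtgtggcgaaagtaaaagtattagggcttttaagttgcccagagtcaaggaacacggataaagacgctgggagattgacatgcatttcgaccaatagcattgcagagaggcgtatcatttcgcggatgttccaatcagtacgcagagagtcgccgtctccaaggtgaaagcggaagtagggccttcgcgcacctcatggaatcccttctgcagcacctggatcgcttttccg

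Of the 8 Fanconi core complex genes, 2 rose and 1 fell, a share called of 37.5% beside the 36.6% of all genes tested. FANCA, a scaffold subunit, had 1966, 2204 and 2323 normalized counts in the lowest, median and highest HCF-1 siRNA library, against 1290.4, 1729.7 and 1841 in the same order over the control siRNA libraries. Every HCF-1 siRNA library lay above every control siRNA library. The log2 fold change was 0.37 ± 0.066 (SE; adjusted p = 2.85e-04, limma). FANCL, the ubiquitin ligase subunit, had 446, 495 and 527 normalized counts in the lowest, median and highest HCF-1 siRNA library, against 256, 398 and 474 in the same order over the control siRNA libraries. All 8 HCF-1 siRNA libraries were above the control siRNA mean, although the ranges overlapped, and control siRNA replicate 7 was the lowest library of all. The log2 fold change of FANCL was 0.31 ± 0.10 (SE; adjusted p = 0.0218, limma). FANCF, an adaptor that links FANCM to the rest of the complex, had 281, 302 and 351 normalized counts in the lowest, median and highest HCF-1 siRNA library, against 344, 364 and 395 in the same order over the control siRNA libraries. All 8 HCF-1 siRNA libraries were below the control siRNA mean and only the highest of them entered the range of the control siRNA libraries. Its log2 fold change was -0.25 ± 0.059 (SE; adjusted p = 0.00345, limma). FANCA, FANCL and FANCF kept their calls in all 26 alternatives.

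The other 5 core complex genes among the 39 did not pass. FANCE, which contacts FANCD2, averaged 319 ± 39.9 normalized counts in HCF-1 siRNA libraries and 349.8 ± 30.4 in control siRNA libraries (SD, n = 8 each), a log2 fold change of -0.14 with a 95% interval of -0.31 to 0.036. FANCG, which binds FANCA, averaged 639 ± 98.5 normalized counts in HCF-1 siRNA libraries and 717 ± 128 in control siRNA libraries, with an interval of -0.40 to 0.082. FANCC averaged 661 ± 108 normalized counts in HCF-1 siRNA libraries and 642 ± 117 in control siRNA libraries, with an interval of -0.20 to 0.30. FANCB and FANCM, the DNA-bound translocase of the complex, were the least abundant. FANCB ran from 48.8 to 135 normalized counts in HCF-1 siRNA libraries and from 38.7 to 69.3 in control siRNA libraries, and its upper value was set by HCF-1 siRNA replicate 4. FANCM ran from 162 to 411 and from 126 to 328 in the same groups. Of the pair that the complex modifies, FANCI averaged 2258 ± 379 normalized counts in HCF-1 siRNA libraries and 1971 ± 278 in control siRNA libraries (log2 fold change 0.19, interval -0.020 to 0.41) and FANCD2 averaged 1502 ± 214 normalized counts in HCF-1 siRNA libraries and 1675 ± 140.3 in control siRNA libraries (log2 fold change -0.17, interval -0.34 to 0.0081). The values for FANCI and FANCD2 lay on opposite sides of 0, and neither passed.

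Among the end resection genes 1 rose and 1 fell. MRE11A, the nuclease of the MRE11-RAD50-NBN complex that starts resection, had 455, 937 and 1146 normalized counts in the lowest, median and highest HCF-1 siRNA library, against 360.3, 493 and 803 in the same order over the control siRNA libraries. The groups overlapped widely: 2 HCF-1 siRNA libraries lay below the control siRNA mean. The log2 fold change was 0.60 ± 0.21 (SE; adjusted p = 0.0352, limma), and its interval ran from 0.15 to 1.06. MRE11A lost its call in 11 of 26 alternatives, without HCF-1 siRNA replicate 1, 2, 3, 5 or 8 or control siRNA replicate 1, 3, 4, 5 or 7 or with no filter on low values (adjusted p 0.0098 to 0.0911 over the alternatives). The partners of MRE11A in the complex did not pass. RAD50 averaged 1262 ± 259 normalized counts in HCF-1 siRNA libraries and 1344 ± 259 in control siRNA libraries (log2 fold change -0.10, interval -0.38 to 0.19), and NBN averaged 1138 ± 194 normalized counts in HCF-1 siRNA libraries and 1020.4 ± 113 in control siRNA libraries (log2 fold change 0.15, interval -0.050 to 0.35).

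EXO1, the exonuclease of long-range resection, had 441, 614 and 748 normalized counts in the lowest, median and highest HCF-1 siRNA library, against 644, 726 and 787 in the same order over the control siRNA libraries. Of the 8 HCF-1 siRNA libraries, 6 were below the control siRNA mean, and the HCF-1 siRNA libraries were spread more widely. The log2 fold change was -0.25 ± 0.090 (SE; adjusted p = 0.0341, limma). EXO1 lost its call in 7 of 26 alternatives, without HCF-1 siRNA replicate 2 or 3 or control siRNA replicate 1, 4, 5 or 8 or with no filter on low values (adjusted p 0.0142 to 0.068 over the alternatives). BLM, the helicase that works with the other long-range nuclease, averaged 404 ± 40.3 normalized counts in HCF-1 siRNA libraries and 442 ± 49.4 in control siRNA libraries, with an interval of -0.30 to 0.038 that crossed 0. RBBP8, which encodes CtIP, the activator of MRE11, averaged 1172 ± 155 normalized counts in HCF-1 siRNA libraries and 1194 ± 109.9 in control siRNA libraries, with an interval of -0.20 to 0.14.

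None of the BRCA group passed. BRCA1, the ubiquitin ligase that promotes resection and PALB2 recruitment, had 1229, 1565 and 1703 normalized counts in the lowest, median and highest HCF-1 siRNA library, against 1141, 1477 and 1852 in the same order over the control siRNA libraries. Its groups overlapped almost wholly, and the log2 fold change was 0.044 ± 0.10 (SE; adjusted p = 0.76, limma), with an interval of -0.16 to 0.25. BRCA2, which prepares resected DNA for strand pairing, had 353, 531 and 886 normalized counts in the lowest, median and highest HCF-1 siRNA library, against 289, 557 and 806 in the same order over the control siRNA libraries. Both groups spanned more than a doubling, and the interval of BRCA2 was wide, at -0.40 to 0.61. BARD1, the partner of BRCA1 in the ligase, ran from 326 to 842 normalized counts in HCF-1 siRNA libraries and from 375 to 930.0 in control siRNA libraries, with an interval of -0.50 to 0.42. PALB2, the bridge between BRCA1 and BRCA2, averaged 1345 ± 191 normalized counts in HCF-1 siRNA libraries and 1198 ± 183 in control siRNA libraries (log2 fold change 0.17, limma adjusted p = 0.167). Control siRNA replicate 1, at 1615 normalized counts, lay far above the other control siRNA libraries for PALB2, and without it PALB2 was called higher (log2 fold change 0.23, adjusted p = 0.029). BRIP1, the helicase bound to BRCA1, averaged 920.5 ± 92.5 normalized counts in HCF-1 siRNA libraries and 869 ± 115 in control siRNA libraries, with an interval of -0.088 to 0.26.

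XRCC2, RAD51B, RAD51C, RAD51D and XRCC3 encode related proteins that assist strand pairing, and of these 5 XRCC2 rose and the others did not pass. XRCC2 had 347, 412 and 516 normalized counts in the lowest, median and highest HCF-1 siRNA library, against 316, 342 and 410.1 in the same order over the control siRNA libraries. All 8 HCF-1 siRNA libraries were above the control siRNA median and 7 were above the mean. The log2 fold change was 0.28 ± 0.093 (SE; adjusted p = 0.0236, limma). XRCC2 lost its call in 1 of 26 alternatives, with no filter on low values (adjusted p 0.0108 to 0.0552 over the alternatives). XRCC2 works in a complex with RAD51B, RAD51C and RAD51D. RAD51B was the lowest of them, with 50.7, 98.4 and 126 normalized counts in the lowest, median and highest HCF-1 siRNA library, against 87.9, 125 and 181 in the same order over the control siRNA libraries. Its log2 fold change of -0.45 ± 0.19 (SE) missed the threshold (limma adjusted p = 0.0744), and it was called lower in 3 of 26 alternatives, without HCF-1 siRNA replicate 3 or control siRNA replicate 7 or with array weights (adjusted p 0.0421 to 0.145 over the alternatives). RAD51C averaged 698 ± 73.2 normalized counts in HCF-1 siRNA libraries and 702 ± 95.2 in control siRNA libraries, a log2 fold change near 0 with an interval of -0.18 to 0.17. RAD51D ran from 265 to 615 in HCF-1 siRNA libraries and from 147 to 698 in control siRNA libraries, with an interval of -0.24 to 0.94. XRCC3, which pairs with RAD51C in another complex, averaged 739 ± 94.1 normalized counts in HCF-1 siRNA libraries and 763 ± 68.0 in control siRNA libraries, with an interval of -0.21 to 0.11.

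The strand exchange partners did not pass. RAD54L, a motor protein of strand exchange, averaged 818 ± 85.5 normalized counts in HCF-1 siRNA libraries and 767 ± 89.2 in control siRNA libraries (interval -0.070 to 0.26). Its paralog RAD54B ran from 212 to 368 in HCF-1 siRNA libraries and from 151 to 313 in control siRNA libraries (interval -0.049 to 0.53). RAD52, an annealing protein, averaged 219.6 ± 40.3 normalized counts in HCF-1 siRNA libraries and 189.7 ± 36.5 in control siRNA libraries (interval -0.070 to 0.49). These 3 log2 fold changes were 0.10, 0.24 and 0.21 in that order, each with an interval that held 0.

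Of the 7 checkpoint signalling genes, CLSPN rose. It encodes claspin, the adaptor through which ATR activates CHEK1. CLSPN had 644, 749 and 953 normalized counts in the lowest, median and highest HCF-1 siRNA library, against 522, 617 and 767 in the same order over the control siRNA libraries. All 8 HCF-1 siRNA libraries were above the control siRNA mean, with overlap at the top of the control siRNA range. The log2 fold change was 0.26 ± 0.093 (SE; adjusted p = 0.0389, limma). CLSPN lost its call in 12 of 26 alternatives, without HCF-1 siRNA replicate 1, 2, 4 or 7 or control siRNA replicate 1, 2, 4 or 6 or with edgeR or with no filter on low values or with the replicate block or with total-count scaling (adjusted p 0.0179 to 0.102 over the alternatives). CHEK1 averaged 1472 ± 95.2 normalized counts in HCF-1 siRNA libraries and 1444 ± 124 in control siRNA libraries and had a narrow interval, -0.090 to 0.15. CHEK2 averaged 1012 ± 102 normalized counts in HCF-1 siRNA libraries and 997 ± 108 in control siRNA libraries, with an interval of -0.14 to 0.18. TOPBP1, the activator of ATR, averaged 1700.3 ± 195 normalized counts in HCF-1 siRNA libraries and 1704 ± 208 in control siRNA libraries, with an interval of -0.18 to 0.17.

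The apical kinases varied more. ATM had 1212, 1466 and 2112 normalized counts in the lowest, median and highest HCF-1 siRNA library, against 758, 1208 and 1901 in the same order over the control siRNA libraries. All 8 HCF-1 siRNA libraries were above the control siRNA median, but the control siRNA group spanned a wider range, and ATM did not pass (log2 fold change 0.35 ± 0.18, SE; adjusted p = 0.14, limma). ATR ran from 455 to 1242 in HCF-1 siRNA libraries and from 414 to 1109.9 in control siRNA libraries, with an interval of -0.21 to 0.68. ATRIP, the partner of ATR, had 238, 317 and 409.6 normalized counts in the lowest, median and highest HCF-1 siRNA library, against 237, 400.1 and 479 in the same order over the control siRNA libraries. In 7 of 8 HCF-1 siRNA libraries it was below the control siRNA mean. Its log2 fold change was -0.32 ± 0.14 (SE; adjusted p = 0.0866, limma), and it was called lower in 3 of 26 alternatives, without HCF-1 siRNA replicate 8 or control siRNA replicate 6 or with array weights (adjusted p 0.0105 to 0.161 over the alternatives).

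The junction nucleases, which cut recombination intermediates and crosslinked forks, did not pass. MUS81 averaged 483 ± 49.3 normalized counts in HCF-1 siRNA libraries and 430.5 ± 86.2 in control siRNA libraries (interval -0.062 to 0.43), and its partner EME1 averaged 361 ± 65.0 normalized counts in HCF-1 siRNA libraries and 346 ± 82.5 in control siRNA libraries (interval -0.21 to 0.36). SLX4, the scaffold that holds these nucleases, averaged 381 ± 22.9 normalized counts in HCF-1 siRNA libraries and 397 ± 14.1 in control siRNA libraries and had the narrowest interval of the 39, -0.17 to 0.051.

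**Figure D2:**
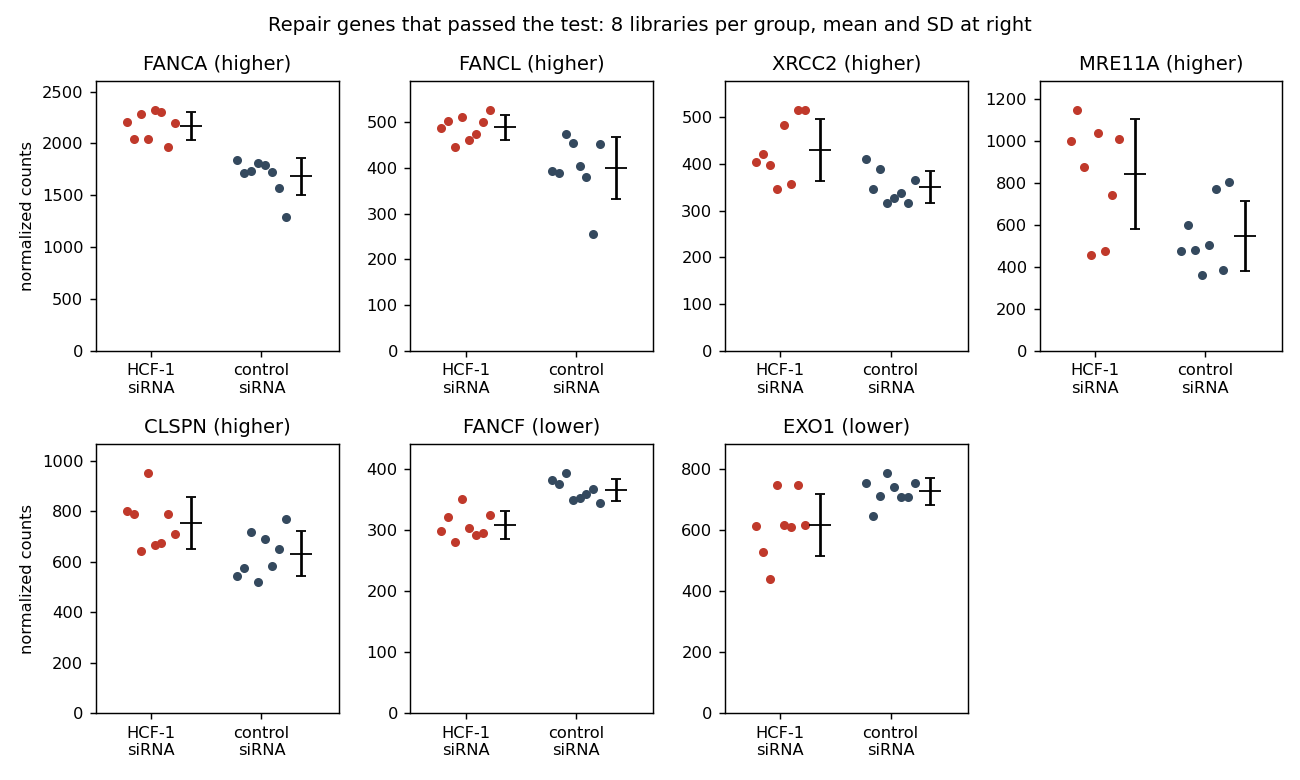
Normalized counts (vertical axis, from 0) of the 7 genes that passed the test, 1 point per library, with HCF-1 siRNA at the left of each panel and control siRNA at the right. The bar beside each group is the mean and SD over 8 libraries. FANCA alone shows no overlap between the groups, and the MRE11A groups overlap over much of their range.

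Per kilobase of exon, which allows genes to be compared, the levels spanned more than a decade. FANCI was the highest, with mean levels of 291 and 254 normalized counts per kb in HCF-1 siRNA and control siRNA libraries, followed by PALB2 (283 and 252) and RAD54L (255 and 239) in the control siRNA order. These 3 levels in control siRNA libraries differed by less than their SDs, and RBBP8, TOPBP1, CHEK2 and CHEK1 came next at 234 to 220.2 per kb. FANCB (18.7 and 14.5) and RAD51B (12.3 and 16.6) were the lowest. FANCB was at percentile 17.5 of all genes tested in control siRNA libraries, and FANCI at percentile 69.7. MRE11A (109.5 and 71.1) stood below its partners NBN (185 and 166) and RAD50 (129 and 138) in both groups. Lengths are the joined exons of all annotated transcripts of another build, so these levels are approximate for genes with many transcripts, such as ATM.

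**Figure D3:**
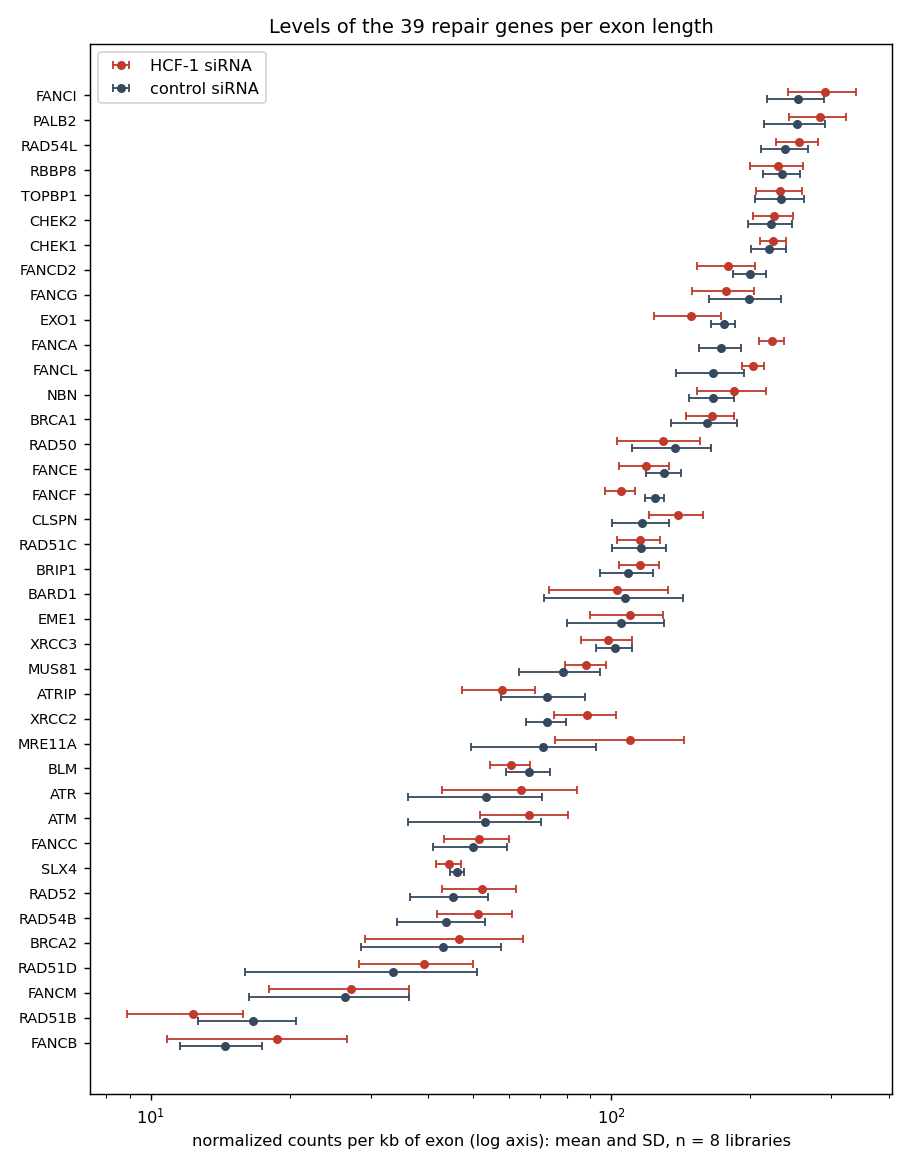
Mean normalized counts per kb of exon (horizontal axis, log scale) with the SD over 8 libraries for HCF-1 siRNA (red, upper point) and control siRNA (grey-blue, lower point), ordered by the control siRNA level. The order runs from FANCI at 254 to FANCB at 14.5 per kb in control siRNA libraries, and the groups lie close together for most genes.

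Several repair genes varied widely among libraries of the same group. Of the 38 with a mean of at least 100 normalized counts, 11 had a highest library more than 2 times the lowest in at least 1 group, beside 14.1% of the 11469 genes tested at such means. RAD51D had the widest range, a ratio of 2.32 between the highest and the lowest HCF-1 siRNA library and of 4.75 between those of the control siRNA group. The ratios of BRCA2 were 2.51 and 2.79, and those of ATR 2.73 and 2.68, in the same groups. The other 8 were FANCM, BARD1, MRE11A, ATM, RAD51B, MUS81, RAD54B and ATRIP. CHEK1, FANCF and SLX4 varied least in both groups together, and the highest SLX4 library was 1.21 times the lowest in the HCF-1 siRNA group and 1.09 times in the control siRNA group. Over all 16 libraries RAD51D was lowest in control siRNA replicate 1, and BRCA2 in control siRNA replicate 7. The cause of this spread was not tested.

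**Figure D4:**
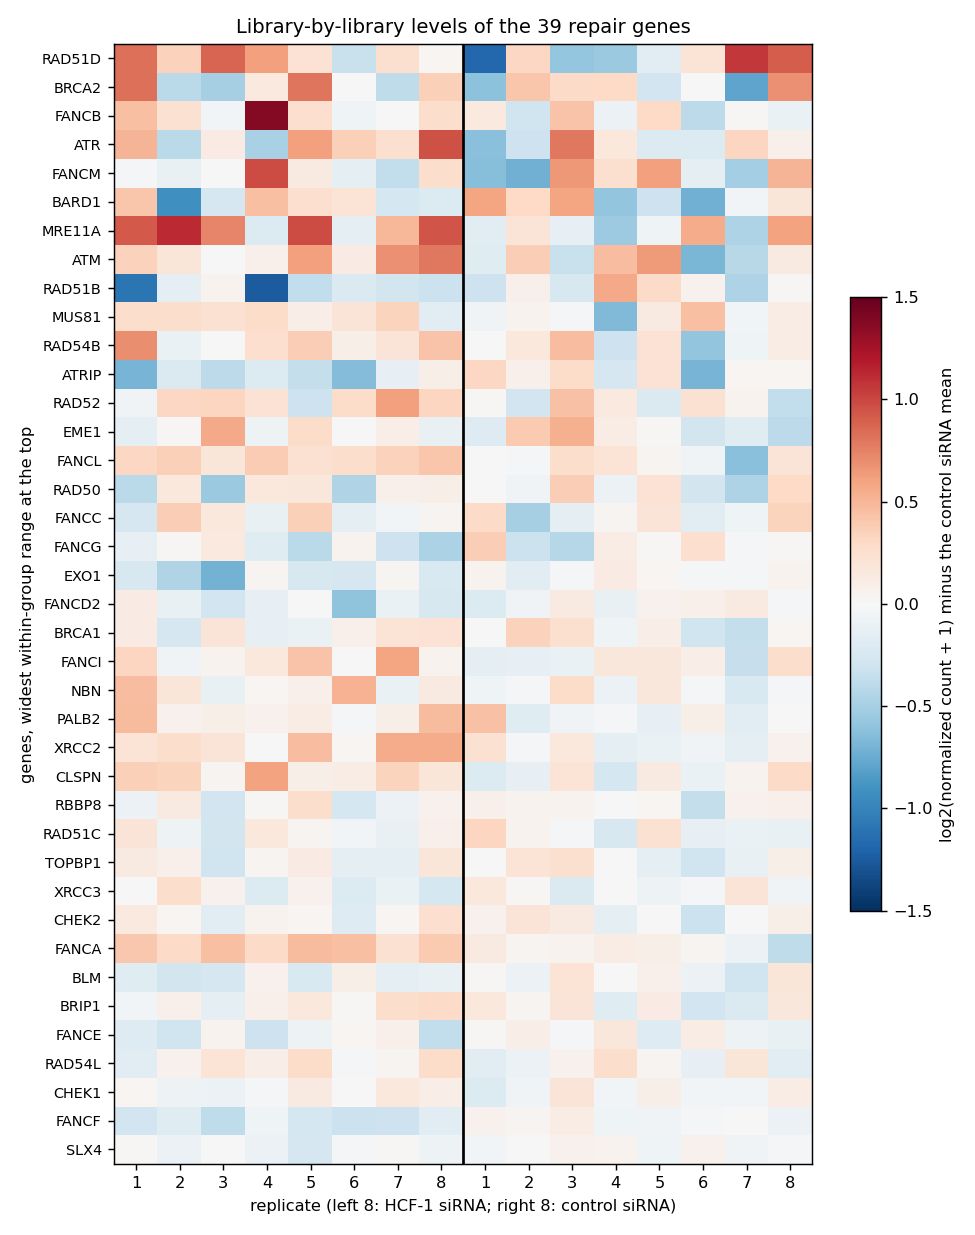
Level of each of the 39 genes in each library, as log2(normalized count + 1) minus the mean of the control siRNA libraries (colour, red above and blue below), with HCF-1 siRNA replicates at the left and control siRNA replicates at the right of the black line. Genes are ordered by their widest ratio of highest to lowest library within a group, from RAD51D (4.75) at the top to SLX4 (1.21) at the bottom. FANCA is red in all HCF-1 siRNA libraries.

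Reads of overlapping genes limit some of these values, since no source used here says whether counting kept to the gene's strand. In GENCODE release 29, 10 of the 39 genes share at least 10% of their exon bases with another gene of the deposited table. The share was 76.7% for XRCC3, opposite KLC1, 59.1% for RAD54B, which shares its strand with FSBP, and 27.9% for ATRIP, which shares its strand with TREX1. For FANCA it was 23.6%, opposite ZNF276, which also rose (509.7 ± 102 normalized counts in HCF-1 siRNA libraries and 364 ± 54.9 in control siRNA libraries; log2 fold change 0.47 ± 0.12, SE; adjusted p = 0.00507, limma). Without the strand setting, reads of FANCA and ZNF276 in that stretch cannot be told apart. For FANCL it was 19.7%, opposite VRK2 and RP11-334G22.1 together, and the part of each was not separated. The log2 fold change of VRK2 was -0.13 ± 0.062 (SE, limma adjusted p = 0.101), and RP11-334G22.1 was not tested. For FANCF the share was 11.3%, opposite GAS2 (log2 fold change 0.068 ± 0.13, SE, limma adjusted p = 0.71). RAD54L, ATR, MUS81 and EME1 shared 25.1%, 16.4%, 14.1% and 16.4% with genes on the opposite strand. KLC1, opposite XRCC3, and LRRC41, opposite RAD54L, rose (log2 fold changes 0.18 and 0.16). CFL1, which with EFEMP2 lies opposite MUS81, fell (means of 13814 normalized counts in HCF-1 siRNA libraries and 16910 in control siRNA libraries). LRRC59, opposite EME1, also fell (9544 and 11331 in the same order). MRE11A and CLSPN shared 2.93% and 5.17%, and XRCC2 and EXO1 shared none. The overlapping genes were named after their values were seen.

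Across the 39 genes the log2 fold change had a Spearman rho of -0.36 with the GC content of the longest transcript, beside -0.24 over the 15541 tested genes with an annotated transcript. With exon length the values were 0.16 and 0.18. These are correlations across genes that share libraries, and genes are not independent replicates. The repair genes had a median GC content of 42.8%, against 48.9% for all tested genes, and a median exon length of 6.16 kb against 4.50 kb. The part of GC content and length in the fold changes was not tested.

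Other genes of the same pathways gave a different count. For 40 recombination partners outside the 39, 6 of 39 tested genes rose and 14 fell (median log2 fold 0.0038), a share called of 51.3% beside the 36.6% of all genes tested. NABP2, which encodes the single-strand binding protein SSB1, fell, with 505 ± 35.2 normalized counts in HCF-1 siRNA libraries and 782 ± 56.2 in control siRNA libraries and no overlap (log2 fold change -0.63 ± 0.058, SE; adjusted p = 4.55e-07, limma). POLQ, the polymerase of microhomology end joining, rose, with 604 ± 126 normalized counts in HCF-1 siRNA libraries and 383 ± 98.8 in control siRNA libraries (log2 fold change 0.68 ± 0.17, SE; adjusted p = 0.0037, limma), as did EME2, a MUS81 partner, with 170.4 ± 43.6 normalized counts in HCF-1 siRNA libraries and 92.1 ± 24.4 in control siRNA libraries (log2 fold change 0.89 ± 0.17, SE; adjusted p = 5.20e-04, limma). SLX1B, a nuclease bound by SLX4, had 0, 48.1 and 95.7 normalized counts in the lowest, median and highest HCF-1 siRNA library, against 96.4, 148 and 179.7 in the same order over the control siRNA libraries, and its near-identical copy SLX1A (1872 ± 138 against 2439.8 ± 212) makes these values uncertain. SLX1B was called lower with no overlap (adjusted p = 0.0205, limma). SLX1B lost its call in 1 of 26 alternatives, with no filter on low values (adjusted p 2.55e-04 to 0.067 over the alternatives).

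Of the 18 Fanconi partners, 4 rose and 9 fell, at a median log2 fold of -0.17 and a share called of 72.2%. C19orf40, which encodes FAAP24, a DNA-binding subunit that joins FANCM, fell and averaged 157 ± 21.0 normalized counts in HCF-1 siRNA libraries and 228 ± 16.1 in control siRNA libraries with no overlap (log2 fold change -0.54 ± 0.085, SE; adjusted p = 9.14e-05, limma). The translesion polymerase subunit MAD2L2 fell (1264 ± 68.4 normalized counts in HCF-1 siRNA libraries and 1698 ± 110.0 in control siRNA libraries; log2 fold change -0.42 ± 0.048, SE; adjusted p = 3.37e-06, limma), while its partner REV3L rose (2245 ± 733 normalized counts in HCF-1 siRNA libraries and 1330.3 ± 322 in control siRNA libraries; log2 fold change 0.73 ± 0.19, SE; adjusted p = 0.00544, limma). REV1, the scaffold of that polymerase, rose too, with 1474 ± 89.9 normalized counts in HCF-1 siRNA libraries and 1010.4 ± 126 in control siRNA libraries and no overlap (log2 fold change 0.55 ± 0.069, SE; adjusted p = 9.12e-06, limma). For the 27 damage signalling partners, 5 of 27 tested genes rose and 4 fell (median log2 fold -0.036), a share called of 33.3%. RIF1 and WEE1 rose (log2 fold changes 0.34 ± 0.10 and 0.29 ± 0.072, SE), and RFC5 fell (-0.28 ± 0.060).

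In the other repair pathways, 0 of 14 tested genes rose and 2 fell (median log2 fold -0.094) for end joining. POLQ, of microhomology end joining, rose but was counted with the recombination partners. The share called was 14.3% for end joining, 11.1% for nucleotide excision repair, 42.1% for base excision repair and 28.6% for mismatch repair, beside 36.6% of all genes tested. XRCC5, the large Ku subunit, fell and averaged 20221 ± 1866 normalized counts in HCF-1 siRNA libraries and 22225 ± 1032 in control siRNA libraries (limma adjusted p = 0.0365), and APLF, an end-joining scaffold, averaged 54.5 ± 9.33 normalized counts in HCF-1 siRNA libraries and 68.2 ± 7.59 in control siRNA libraries (limma adjusted p = 0.0438). XRCC5 lost its call in 10 of 26 alternatives, without HCF-1 siRNA replicate 3, 4, 5, 6 or 7 or control siRNA replicate 1, 2, 3 or 4 or with no filter on low values (adjusted p 0.0125 to 0.0695 over the alternatives). APLF lost its call in 13 of 26 alternatives, without HCF-1 siRNA replicate 2, 3, 5 or 6 or control siRNA replicate 1, 2, 3, 4 or 8 or with DESeq2 or with edgeR or with no filter on low values or with the replicate block (adjusted p 0.0314 to 0.142 over the alternatives). For nucleotide excision repair, 1 of 18 tested genes rose and 1 fell (median log2 fold -0.013); XPC rose (log2 fold change 0.27 ± 0.075, SE) and GTF2H5 fell (-0.42 ± 0.053). For base excision repair, 1 of 19 tested genes rose and 7 fell (median log2 fold -0.10), and UNG, SMUG1, APEX2 and PARP1 fell, with log2 fold changes of -0.48, -0.44, -0.35 and -0.26. For mismatch repair, 2 of 7 tested genes rose and 0 fell (median log2 fold -0.025), and PMS1 (0.35 ± 0.092, limma adjusted p = 0.00589) and MLH3 (0.32 ± 0.12, limma adjusted p = 0.0489) rose. MLH3 lost its call in 16 of 26 alternatives, without HCF-1 siRNA replicate 2, 3, 4, 6 or 7 or control siRNA replicate 1, 2, 3, 4, 5, 7 or 8 or with edgeR or with no filter on low values or with total-count scaling or with upper-quartile scaling (adjusted p 0.0205 to 0.0973 over the alternatives).

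Genes of DNA replication and of mitosis, which are active in the same cell cycle phases as many repair genes, are set beside them. For replication, 2 of 35 tested genes rose and 16 fell (median log2 fold -0.17), a share called of 51.4%, with GINS2 (-0.54 ± 0.045), TK1 (-0.45 ± 0.060), PRIM2 (-0.43 ± 0.12) and GINS4 (-0.42 ± 0.10) the called genes of largest change. For mitosis, 9 of 30 tested genes rose and 6 fell (median log2 fold -0.0024), a share called of 50%, with CENPE (0.75 ± 0.21), ASPM (0.60 ± 0.10) and HMMR (0.52 ± 0.10) higher and CDC25B (-0.49 ± 0.087) lower. These are log2 fold changes with SE, from the same limma fit. The part of cell cycle phase in the repair genes' values was not tested. No difference between these lists and the 39 genes was tested either, so the counts stand side by side as descriptions.

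**Figure D5:**
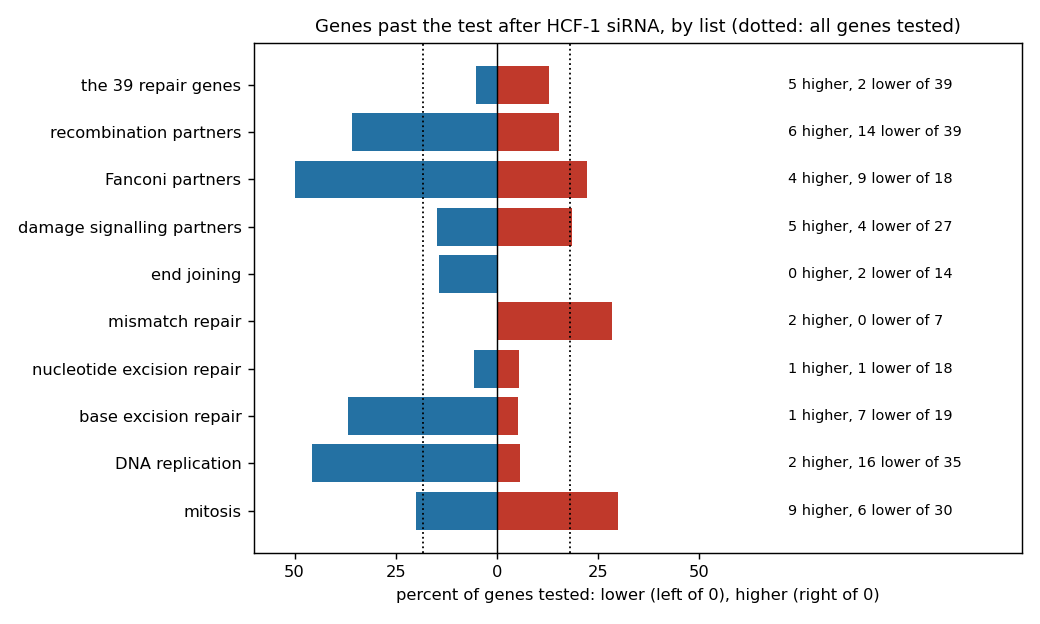
Share of the tested genes in each list that were called higher (red, to the right) or lower (blue, to the left) after HCF-1 siRNA, with the counts at the right and dotted lines at the shares over all genes tested (18.2% and 18.3%). The 39 repair genes lie inside both lines, at 5 higher and 2 lower, and DNA replication lies furthest beyond the left line after the Fanconi partners.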

How the data were processed

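Per the labels' protocols, HepG2 RNA went through a stranded mRNA kit. The authors' deposited table holds a signal for each Ensembl gene and library, called normalized counts here. The submitters' processing notes list the build hg19 and, among tools, DESeq2 1.16.1, featureCounts 1.4.4, STAR 2.4.1d and cutadapt 1.4.2. The sources used here give no strand setting, annotation release or filter. In each library every value (100%, within 0.001 read) is a whole number of equal steps, so whole reads were recovered by division.

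The main test was limma 3.58.1 in R 4.3.3 (moderated with a mean trend and robust prior) on log2(normalized count + 1), a scale that understates the change of low genes, on genes averaging at least 10 over the 16 libraries. A call is a Benjamini-Hochberg adjusted p under 0.05 over all 16081 genes tested. "Lowest, median and highest" are over the 8 libraries of a group. Alternatives were pseudocounts of 0.5 and 10, scaling by upper quartiles or totals, array weights, no filter, a mean of 50 as filter, the replicate block, each library left out, and edgeR 4.0.16 and DESeq2 1.42.0 on recovered reads, which called 5875 and 6258 genes. Simulated counts were used to test the limma step. No libraries of a group agreed within sampling noise. Nothing says how the replicate cultures were separated, so p-values measure the spread between these samples.

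The 39 genes and the other lists were chosen with earlier results of these data known. Named beyond the 39 were HCFC1 and, per list, up to 4 called genes that changed most and averaged 50 or more in 1 group, or else the gene of highest mean; 2 genes that the rule names are not reported here. Exon lengths, GC content, overlaps and neighbours came from GENCODE release 29 by Ensembl identifier, for 96.6% of genes tested, and promoters from RefSeq (GRCh38.p14).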

Additional observations from a re-analysis of the deposited data

Results flagged for a closer look

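In 6 of 88 groups of 8 values, 1 library lay apart from the other 7: the distance to its neighbour was a large share of the group's range. For independent values with a normal distribution, chance picks about 1 in 20 groups, but the genes here share libraries. For PALB2, control siRNA replicate 1 stood at 1615 normalized counts while the other 7 spanned 1050.4 to 1264. For FANCB, HCF-1 siRNA replicate 4 stood at 135 normalized counts while the other 7 spanned 48.8 to 70.5. For FANCL, control siRNA replicate 7 stood at 256 normalized counts while the other 7 spanned 381 to 474. For FANCM, HCF-1 siRNA replicate 4 stood at 411 normalized counts while the other 7 spanned 162 to 249.9. For RBBP8, control siRNA replicate 6 stood at 927 normalized counts while the other 7 spanned 1188 to 1254. For SLX4, HCF-1 siRNA replicate 5 stood at 333 normalized counts while the other 7 spanned 372 to 402. HCF-1 siRNA replicate 4 was the library apart for both FANCB and FANCM. With 1 library left out in turn, the log2 fold change ran from 0.16 to 0.37 for FANCB and from -0.039 to 0.18 for FANCM, and neither passed. FANCL kept its call without control siRNA replicate 7, and its log2 fold change over the libraries left out ran from 0.22 to 0.35.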

How the results depend on the processing

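Over the whole table, 5163 to 6258 genes were called over the 26 alternatives, against 5879 in the main setting, and HCFC1 stayed lower in all. With no filter on low values, 2 repair genes rose and 1 fell, and with array weights 4 fell. With 1 library left out, 3 to 5 rose and 1 to 3 fell, and their median log2 fold change ran from 0.024 to 0.10. The number that rose was 3 without HCF-1 siRNA replicate 1 or 2 or control siRNA replicate 4, and the number that fell was 1 without HCF-1 siRNA replicate 2 or control siRNA replicate 1, 4, 5 or 8. Repair genes near 0 changed sign, none of them called: with 1 library left out the log2 fold changes ran from -0.0076 to 0.092 for BRCA1, -0.14 to 0.084 for BARD1, -0.0070 to 0.20 for BRCA2, -0.038 to 0.041 for RAD51C, -0.022 to 0.10 for FANCC, -0.039 to 0.18 for FANCM, -0.083 to 0.0054 for RBBP8, -0.00018 to 0.057 for CHEK1, -0.023 to 0.054 for CHEK2, -0.045 to 0.040 for TOPBP1, and CHEK2 was -0.0051 with total-count scaling. The cause was not tested. Same-numbered replicates did not vary together, with correlations of -0.13 to 0.14. Of 8 HCF-1 siRNA libraries, 2 were closest to the control siRNA library of the same number. The highest correlation between libraries of different groups was 0.34, for HCF-1 siRNA replicate 3 and control siRNA replicate 6. What those libraries share was not tested. The replicate block groups libraries by number, so it does not model that pair. With the replicate block, 4 repair genes rose, 2 fell and 5484 genes changed. Depth limits FANCB and RAD51B most, the genes of lowest counts.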

Other observations

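Some repair genes start close to a gene on the other strand, and the share of all genes that do was not counted. In GENCODE release 29, 16 of the 39 have a protein-coding gene on the other strand that starts within 1000 bases. Distances are between the outermost annotated starts of the genes, which need not be the starts mainly used. Of these 16 neighbours 12 were tested, and 2 rose and 1 fell, beside 36.6% called of all genes tested. NBR1, an autophagy receptor gene that starts 236 bases from the outermost annotated start of BRCA1, rose. It averaged 5583 ± 158 normalized counts in HCF-1 siRNA libraries and 5090.4 ± 146 in control siRNA libraries (log2 fold change 0.13 ± 0.028, SE, limma adjusted p = 0.00135). DNASE1, 130 bases from SLX4, rose (223 ± 43.8 normalized counts in HCF-1 siRNA libraries and 175 ± 23.1 in control siRNA libraries; log2 fold change 0.34 ± 0.11, SE; limma adjusted p = 0.0239). DCTN5, a dynactin subunit gene 82 bases from PALB2, fell (4216 ± 281 normalized counts in HCF-1 siRNA libraries and 4817 ± 264 in control siRNA libraries; log2 fold change -0.19 ± 0.045, SE; limma adjusted p = 0.00271). None of these 3 lies beside a called repair gene, but of the called repair genes only MRE11A and FANCF had such a neighbour. The neighbours of the called genes MRE11A and FANCF, ANKRD49 and GAS2, did not pass, with log2 fold changes of -0.11 ± 0.15 and 0.068 ± 0.13 (SE) beside 0.60 and -0.25. NPAT, a histone gene activator that starts 158 bases from ATM, averaged 407 ± 50.9 normalized counts in HCF-1 siRNA libraries and 434 ± 65.4 in control siRNA libraries and did not pass (log2 fold change -0.086 ± 0.10, SE). ZAR1L, TEX14, FNDC8 and IL5, beside BRCA2, RAD51C, RAD51D and RAD50, had means under 10 normalized counts and were not tested. These neighbours were looked at after the values of the repair genes were seen.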
